A study of Rattus norvegicus with 170 samples.

Results

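Glucagon, the hormone of the pancreatic α-cell, is encoded by *Gcg*, and 5 further genes are known as markers of α-cell identity: *Ttr*, *Irx1*, *Irx2*, *Slc38a5* and *Pou3f4*. These 6 genes, taken by symbol out of the 24113 genes of the table, were followed in single rat islet cells. A cell was called an α-cell when *Gcg* reached 1000 RPM, a unit in which each cell's reads are scaled by how many it had mapped, and *Ins1*, a rat insulin gene, did not. It was called a β-cell when *Ins1* reached 1000 RPM and *Gcg* did not, and a double cell when both did. *Gcg* and *Ins1* therefore define the classes, and their contrast between classes is a description. The other 5 genes played no part in that choice.

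Glucagon is released when blood glucose is low and raises glucose output from the liver, opposing the insulin of the β-cell. It is cut from a longer precursor, proglucagon, by the convertase *Pcsk2*, whereas *Pcsk1* cuts the same precursor to the incretin GLP-1. Transcription factors with a DNA-binding homeodomain, among them PAX6 and POU3F4, act in islet development or on the *Gcg* promoter.

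The cells came from islets of 8 week old male wild type Sprague Dawley rats. Whole islets, hand picked, were kept for 48 h in RPMI1640 with 10% FBS and 5.5 mM glucose, in the presence of 0.1% DMSO as vehicle or of 3 μM GNF4877, an inhibitor of the kinases DYRK1A and GSK3β. They were then dispersed with trypsin, and single cells were captured on a microfluidic C1 chip, amplified with SMARTer chemistry and sequenced as single 50 bp reads. The study compared treated with vehicle cells. The table held 86 DMSO-treated and 84 GNF4877-treated cells, and each treatment was 1 sample, as the labels name no animal, culture or further chip.

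Mapped reads per cell ranged from 241604 to 2499138 in the DMSO-treated cells and from 298829 to 2171567 in the GNF4877-treated cells. The DMSO-treated cells held 5 α-cells, 56 β-cells, 22 double cells and 3 cells with neither hormone at 1000 RPM. The GNF4877-treated cells held 18 α-cells, 58 β-cells, 1 double cell and 7 cells of neither kind. The α-cells made up 5.81% of the DMSO-treated cells (exact Clopper-Pearson 95% interval 1.91 to 13.05%) and 21.4% of the GNF4877-treated cells (13.2 to 31.7%). The double cells, which also had *Gcg* at 1000 RPM, went the other way, at 25.6% (16.8 to 36.1%) and 1.19% (0.0301 to 6.46%). The α-cell shares are therefore not the shares of all cells with high *Gcg*. With a class threshold of 10000 RPM the DMSO-treated α-cells were 8 (9.30%) and with 100 RPM 3 (3.49%), 1 of them of neither class at 1000 RPM, and with RPM taken over listed reads the GNF4877-treated double cells were 3 (3.57%). At 100 RPM the double cells were 45 after DMSO and 21 after GNF4877. All intervals cover counting error only. The median α-cell had 961560 mapped reads and 7026 genes with a read after DMSO, against 1388773 reads and 5865 genes after GNF4877. In 7 cells under 700000 RPM fell on listed transcripts; 3 of them were DMSO-treated β-cells, 1 was a GNF4877-treated β-cell and 3 belonged to neither class. None of the α-cells or double cells was among them, and leaving these 7 cells out ended no call of the 6 genes.

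*Gcg* divided the cells with wide gaps. In the DMSO-treated cells the highest value under the threshold was 865 RPM and the lowest above it 5982 RPM. After GNF4877 these neighbours stood at 454 and 37011 RPM. For *Ins1* they lay closer, at 495 and 1784 RPM after DMSO and at 813 and 1248 RPM after GNF4877. The plot of *Gcg* against *Ins1* shows the 4 quadrants.

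**Figure D1:**
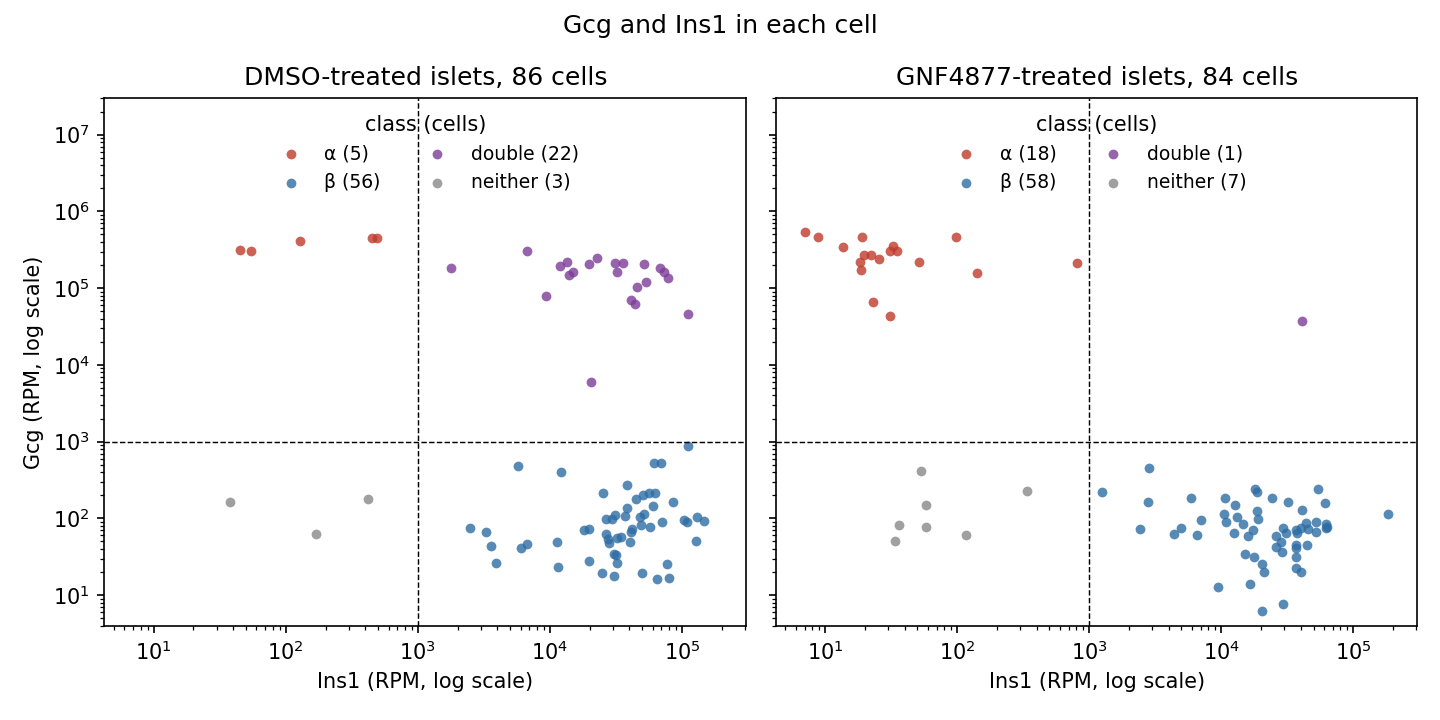
*Gcg* (vertical axis) against *Ins1* (horizontal axis), both in RPM on log scales, with 1 point per cell for 86 DMSO-treated and 84 GNF4877-treated cells; colours give the class and dashed lines the 1000 RPM threshold. The upper right quadrant holds 22 cells after DMSO and 1 after GNF4877.

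The hormone itself took a large share of the reads of each α-cell. The 5 DMSO-treated α-cells had *Gcg* at 301555, 314647, 409098, 447784 and 455426 RPM. The 18 GNF4877-treated α-cells ran from 43763 through a median of 271659.6 to 539847 RPM. The treated range enclosed the vehicle range, with cells below and above all 5 vehicle cells, and the log2 ratio of the means, GNF4877 over DMSO, was -0.44. The DMSO-treated double cells had *Gcg* from 5982 through a median of 163196 to 301714 RPM, and the GNF4877-treated double cell, cell 31, had 37011 RPM. Of the 22 double cells, 1 reached the lowest DMSO-treated α-cell, so these classes met at a single point of their ranges.

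*Gcg* reads were also present at a low level in every β-cell. They ran from 16.2 through a median of 73.6 to 865 RPM in the 56 DMSO-treated β-cells, and from 6.25 through 73.7 to 454 RPM in the 58 GNF4877-treated β-cells. The medians lay close together and the ranges overlapped. In the cells of neither class *Gcg* stood at 62.9, 163 and 181 RPM after DMSO and at 50.99 to 412 RPM, median 81.8, after GNF4877. Across β-cells *Gcg* was lower in cells with more mapped reads (Spearman rho -0.44 over 56 DMSO-treated cells and -0.33 over 58 GNF4877-treated cells of 1 chip each). The source of these reads was not tested.

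The Iroquois homeobox gene *Irx1* was read in 6 of 18 GNF4877-treated α-cells (33.3%, 13.3 to 59.01%) and in 0 of 58 β-cells of the same islets, which allows a share of up to 5.17%. In the α-cells with a read its level ran from 0.765 to 54.5 RPM, and in 2 of the 6 it rested on 1 read. After DMSO it was read in 2 of 5 α-cells, at 2.96 and 6.97 RPM, and in 0 of 56 β-cells, which allows up to 5.36%. *Irx1* was thus sparse within α-cells, and no β-cell of either treatment held a read. Where a read was taken to need 10 RPM, 2 of 18 GNF4877-treated α-cells (11.1%) and 0 of 5 DMSO-treated α-cells held it. The mean over the GNF4877-treated α-cells was 4.73 RPM, and 64.1% of its sum came from cell 85.

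*Irx2*, its neighbour in the same homeobox cluster, was read in 10 of 18 GNF4877-treated α-cells (55.6%, 30.8 to 78.5%) and in 0 of 58 β-cells. Its highest level in these α-cells was 52.4 RPM and its median over all 18 was 0.594 RPM. After DMSO 2 of 5 α-cells had 50.0 and 50.3 RPM, and the other 3 had no read. Among the DMSO-treated β-cells 2 of 56 held a read (3.57%, 0.435 to 12.3%), cell 16 at 15.6 RPM and cell 9 at 1.05 RPM. The α-cells with no *Irx2* read overlapped the β-cells, while cell 16 lay above the median α-cell of both treatments. At 10 RPM or more it was found in 5 of 18 GNF4877-treated α-cells (27.8%). The mean over the GNF4877-treated α-cells was 9.26 RPM.

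*Pou3f4* encodes a POU homeodomain factor known to bind the *Gcg* promoter. After GNF4877 it was read in 6 of 18 α-cells (33.3%, 13.3 to 59.01%), from 1.19 to 584 RPM, and in 0 of 58 β-cells. After DMSO it was read in 2 of 5 α-cells, at 32.6 and 83.4 RPM, and in 0 of 56 β-cells. Most α-cells of both treatments had no *Pou3f4* read. The mean over the GNF4877-treated α-cells was 55.7 RPM, and 58.3% of its sum came from cell 84.

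*Ttr* encodes transthyretin, a carrier of thyroxine and of the retinol-binding protein. It was read in 7 of 18 GNF4877-treated α-cells (38.9%, 17.3 to 64.3%), from 5.86 to 348 RPM with a median of 58.6 RPM over those 7. It was read in 2 of 58 GNF4877-treated β-cells (3.45%, 0.420 to 11.9%), cell 93 at 83.8 RPM and cell 22 at 12.1 RPM. After DMSO 1 of 5 α-cells held it, cell 67 at 78.2 RPM (20%, 0.505 to 71.6%), and 0 of 56 β-cells did. The β-cells with a read lay within the range of the α-cells with a read.

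**Figure D2:**
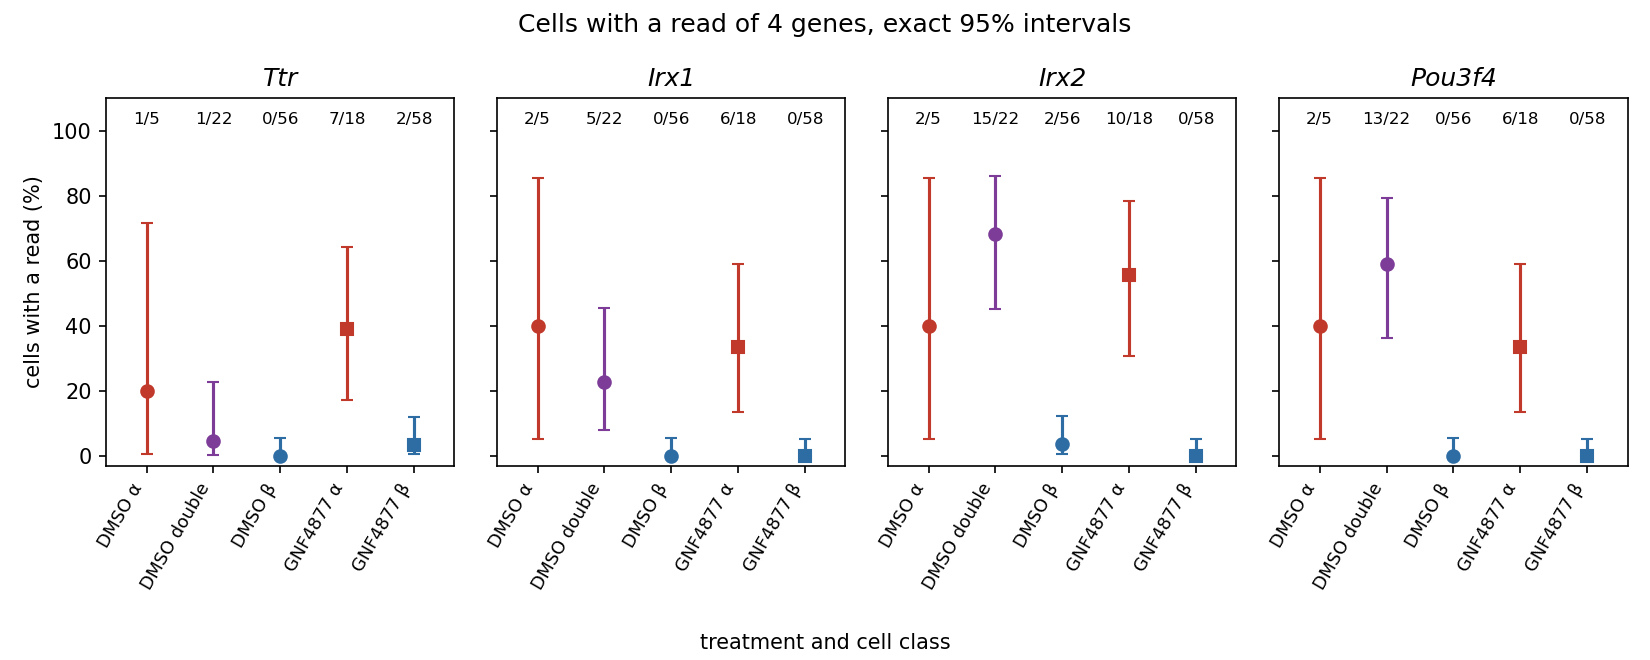
Percent of cells with a read of *Ttr*, *Irx1*, *Irx2* and *Pou3f4* (vertical axis) by treatment and cell class (horizontal axis); bars are exact 95% intervals and the counts stand above. For *Irx1* and *Pou3f4* 0 of 56 and 0 of 58 β-cells held a read, against 6 of 18 GNF4877-treated α-cells for each gene.

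*Slc38a5* encodes a transporter of glutamine and other neutral amino acids, known to rise in α-cells when glucagon action is blocked. Unlike the other 4 genes it was read in every cell. The 5 DMSO-treated α-cells had 1190.0, 1219.9, 1280.0, 4512 and 6719 RPM, and the 18 GNF4877-treated α-cells ran from 189 through a median of 1924 to 12895 RPM. The β-cells spread further, from 1.501 through 368 to 13885 RPM after DMSO and from 2.76 through 801 to 11269 RPM after GNF4877. The lowest DMSO-treated β-cells, cells 80, 73 and 48 at 1.501 to 4.53 RPM, had under 700000 RPM on listed transcripts. Below the lone GNF4877-treated double cell, at 2144 RPM, the classes ran in order of their medians from GNF4877-treated α-cells through DMSO-treated double cells (1286 RPM), DMSO-treated α-cells, GNF4877-treated β-cells and DMSO-treated β-cells down to the cells of neither class, at 8.69 RPM after GNF4877 and 7.11 RPM after DMSO. The ranges of neighbours in this order overlapped. The 3 DMSO-treated cells of neither class, at 2.99 to 13.4 RPM, lay below all α-cells and double cells.

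A level of 1000 RPM or more of *Slc38a5* was found in 5 of 5 DMSO-treated α-cells (47.8 to 100%) and in 14 of 18 GNF4877-treated α-cells (77.8%, 52.4 to 93.6%). Among β-cells it was found in 12 of 56 after DMSO (21.4%, 11.6 to 34.4%) and in 25 of 58 after GNF4877 (43.1%, 30.2 to 56.8%). High *Slc38a5* was thus common in α-cells and also present in many β-cells. No α-cell was below 100 RPM, whereas 14 of 56 DMSO-treated and 9 of 58 GNF4877-treated β-cells were. The 14 include the 3 DMSO-treated β-cells with under 700000 RPM on listed transcripts, a kind absent among the α-cells.

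**Figure D3:**
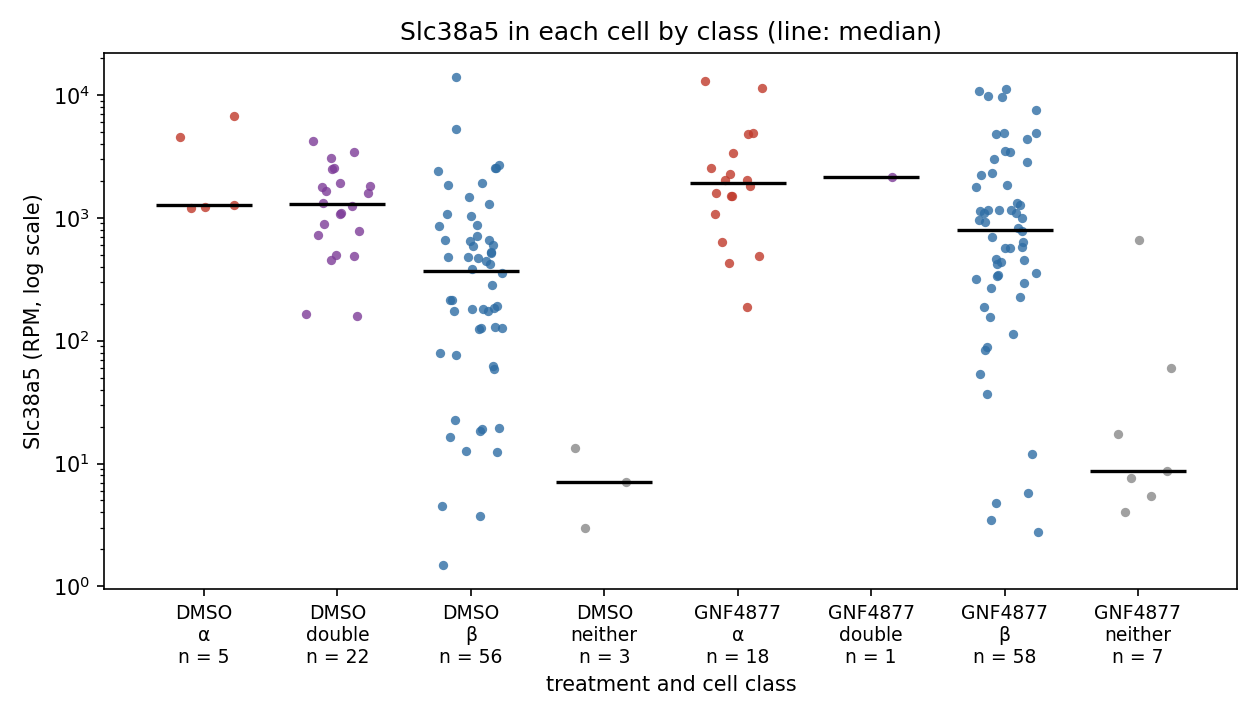
*Slc38a5* in RPM on a log scale (vertical axis) for each cell by treatment and class (horizontal axis), with lines at the medians. The median is 1924 RPM in GNF4877-treated α-cells and 801 RPM in GNF4877-treated β-cells, and the ranges overlap.

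The α-cells and β-cells were compared by the log2 ratio of their mean RPM, with 1 RPM added to each, and a ratio of 2 or more was called higher. After GNF4877, 4 of the 5 genes other than *Gcg* were called: *Ttr* at 4.17, *Irx1* at 2.52, *Irx2* at 3.36 and *Pou3f4* at 5.82. Among genes read in at least 10% of these cells 3.32% were called higher, and among all genes with a read 4.65%. Only *Ttr*, *Irx2* and *Slc38a5*, 3 of the 5, were read in that 10% of cells, so the calls of *Irx1* and *Pou3f4* rest on genes under the filter. That filter counts the cells of both classes together, and *Ttr* and *Irx2* passed it only through their reads in α-cells, so passing adds nothing to their calls. *Slc38a5* had a ratio of 0.69 and was not called. The median over the 5 genes was 3.36, against -0.28 over 16364 genes with a read.

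In the GNF4877-treated cells the call of *Irx1* rested on cell 85, without which the ratio was 1.48. *Pou3f4* fell to 4.68 without cell 84, and *Ttr* moved to 3.5 without α-cell 66 and to 5.30 without β-cell 93. With 10 RPM added in place of 1 RPM, *Irx1* at 0.56 and *Irx2* at 0.95 were not called. Taken as a difference of mean log2 values they stood at 0.95 and 1.71, and *Slc38a5* stood at 1.63. With a class threshold of 100 RPM, at which cell 85 was no α-cell and cells 5 and 62 of neither class became α-cells, *Irx1* stood at 1.43. Thinning each cell to 100000 reads left all 4 called, with *Irx1* at 3.22 and *Ttr* at 3.47.

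After DMSO, 3 of the 5 genes were called higher in α-cells: *Ttr* at 4.06, *Irx2* at 4.02 and *Pou3f4* at 4.6. The share called over all genes was 3.62% with the 10% filter and 3.99% without it. *Irx1* stood at 1.58 and *Slc38a5* at 1.73. Of the 5 genes 1, *Slc38a5*, passed the filter. The median over the 5 was 4.02, against -0.56 over 16920 genes with a read.

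These DMSO ratios rest on 5 α-cells. *Ttr* had no α-cell read left without cell 67. *Irx2* stood at 3.38 without cell 90 and at 3.39 without cell 94, *Pou3f4* at 3.19 without cell 94, *Irx1* at 0.80 without cell 33, which held *Sst* over 1000 RPM, and *Slc38a5* reached 2.17 without β-cell 88. With a class threshold of 100 RPM for both hormones 2 of the 5 DMSO-treated α-cells, cells 33 and 89, were left, and cell 29, of neither class at 1000 RPM, with *Gcg* at 163 RPM and *Ppy* at 45020 RPM, was added. None of these 3 held *Ttr*, *Irx2* or *Pou3f4*, and no gene was called. With 10 RPM added the count was also 0. With the difference of mean log2 values *Ttr*, at 1.26, lost its call and *Slc38a5*, at 3.18, gained one, and with 0.1 RPM added *Irx1*, at 4.38, gained one. At 10000 RPM *Slc38a5* stood at 1.09, *Ttr* at 3.43 and *Pou3f4* at 5.51.

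In double cells the question was whether genes with no part in choosing them were those of α-cells. *Irx2* was read in 15 of 22 (68.2%, 45.1 to 86.1%), up to 66.6 RPM with a median of 2.28 RPM. *Pou3f4* was read in 13 of 22 (59.1%, 36.4 to 79.3%), up to 214 RPM with a median of 6.74 RPM. *Irx1* was read in 5 of 22 (22.7%, 7.82 to 45.4%), up to 3.82 RPM and in 4 of the 5 from 1 read. *Ttr* was read in 1 of 22 (4.55%, 0.115 to 22.8%), cell 92 at 21.4 RPM. The double cells thus held the homeobox genes in shares whose intervals overlapped those of the 5 DMSO-treated α-cells, and all 3 in shares whose intervals lay above those of the DMSO-treated β-cells. Where a read was taken to need 10 RPM, *Irx2* was found in 5 of 22 double cells (22.7%, 7.82 to 45.4%), an interval that met that of the β-cells (1 of 56, 0.0452 to 9.55%), and *Irx1* in 0 of 22. Among the 45 double cells at a class threshold of 100 RPM, 18 held *Irx2* (40%) and 15 held *Pou3f4* (33.3%).

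*Slc38a5* ran from 158 through 1286 to 4182 RPM in the double cells, and 14 of 22 reached 1000 RPM (63.6%, 40.7 to 82.8%). Compared with the DMSO-treated β-cells, 2 of the 5 genes were called higher in double cells, *Irx2* at 3.25 and *Pou3f4* at 4.78. Over all genes 1.74% were called with the 10% filter and 2.02% without it, and 3 of the 5 passed that filter. The filter counts the cells of both classes together, and *Irx2* and *Pou3f4* passed it only through their reads in double cells, so passing adds nothing to their calls. The other values were 0.98 for *Ttr*, 0.45 for *Irx1* and 0.75 for *Slc38a5*, and the median of the 5 was 0.98 against -0.06 over 17295 genes with a read. With 10 RPM added none of the 5 was called, and with 0.1 RPM added 4 were. With the difference of mean log2 values *Slc38a5*, at 2.19, was called as well.

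Depth bore on these shares. When each cell was thinned to 100000 reads on listed transcripts, *Irx2* was read in 7 of 22 double cells (31.8%, 13.9 to 54.9%), *Irx1* in 1 and *Pou3f4* in 10. The same thinning left *Irx2* in 7 and *Pou3f4* in 5 of the 18 GNF4877-treated α-cells. After thinning the median double cell still had 6661 genes with a read and the median GNF4877-treated α-cell 3973, so the classes were matched in reads and not in genes. As deposited, the double cells had a median of 1355291 mapped reads and 9094 genes with a read, more than the DMSO-treated α-cells.

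Against the DMSO-treated α-cells the double cells had a log2 ratio of -1.31 for *Gcg*, -0.97 for *Slc38a5*, -0.77 for *Irx2*, -1.13 for *Irx1* and 0.19 for *Pou3f4*, beside a median of 0.52 over all 15880 genes with a read. *Ttr* stood at -3.08, a value that became 0.98 without α-cell 67 and -4.06 without double cell 92. *Irx2* stood at -0.13 without α-cell 90 or 94 and *Irx1* at -0.35 without α-cell 33. *Pou3f4* turned to -0.38 without double cell 65 and to -0.12 without α-cell 33, 67 or 89, and stood at 1.59 without α-cell 94. Of 9 β-cell markers 8 were in the table, *G6pc2* having no entry, and *Ins1* defines the classes. Of the other 7, 0 were higher and 0 lower in double cells than in DMSO-treated β-cells, which is near the 2.02% higher and 2.24% lower over 17295 genes with a read. The GNF4877-treated double cell, cell 31, had *Slc38a5* at 2144 RPM and *Ins1* at 40717 RPM and no read of *Ttr*, *Irx1*, *Irx2* or *Pou3f4*.

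The 4 sparsely read genes, grouped after their values were seen, were next counted within each cell. Of the 18 GNF4877-treated α-cells 5 held none of them, 2 held 1, 8 held 2, 1 held 3 and 2 held all 4. Of the 5 DMSO-treated α-cells 1 held none, 2 held 1, 1 held 2 and 1 held 3. Of the 22 double cells 3 held none, 7 held 1, 9 held 2 and 3 held 3. Most cells with high *Gcg* thus held some of these genes and few held all.

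At least 1 of the 4 was read in 13 of 18 GNF4877-treated α-cells (72.2%, 46.5 to 90.3%), in 4 of 5 DMSO-treated α-cells (80%, 28.4 to 99.5%) and in 19 of 22 double cells (86.4%, 65.1 to 97.1%). In β-cells it was 2 of 56 after DMSO (3.57%, 0.435 to 12.3%) and 2 of 58 after GNF4877 (3.45%, 0.420 to 11.9%). After thinning to 100000 reads it was 12 of 18 GNF4877-treated α-cells and 15 of 22 double cells. Where a read was taken to need 10 RPM, it was 13 of 22 double cells.

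The double cells without any of the 4 genes were cells 60, 21 and 79. Cell 60 was the double cell with the lowest *Gcg*, 5982 RPM, and cell 21 the one with the lowest *Ins1*, 1784 RPM. Cell 79 had *Gcg* at 221660.0 RPM. Among GNF4877-treated α-cells, the highest *Gcg*, 539847 RPM in cell 52, stood in a cell with none of the 4 genes.

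*Irx2* and *Pou3f4* occurred in the same cell in 9 of 22 double cells, 5 of 18 GNF4877-treated α-cells and 2 of 5 DMSO-treated α-cells. *Irx1* and *Irx2* occurred together in 4 double cells, in 4 GNF4877-treated α-cells and in 1 DMSO-treated α-cell. *Ttr* shared a cell with *Irx1*, with *Irx2* and with *Pou3f4* in 4 GNF4877-treated α-cells each. All 6 pairs of the 4 genes were thus found together in at least 2 of these 18 α-cells, the lowest count being *Irx1* with *Pou3f4*.

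Across all cells of a treatment, which mix the classes and share a chip, *Gcg* had a Spearman rho of 0.53 with *Irx2* over 86 DMSO-treated cells and 0.52 over 84 GNF4877-treated cells. With *Pou3f4* it was 0.55 and 0.38, with *Irx1* 0.38 and 0.35, and with *Ttr* 0.24 and 0.35. With *Slc38a5* it was 0.50 after DMSO and 0.18 after GNF4877. Within the 18 GNF4877-treated α-cells, *Gcg* had a rho of 0.59 with *Slc38a5*, 0.28 with *Irx2*, 0.11 with *Ttr*, 0.08 with *Pou3f4* and -0.35 with *Irx1*. After GNF4877 each of the 4 sparse genes thus had a higher rho with *Gcg* across all cells than within α-cells. With each cell thinned to 100000 reads the DMSO value for *Irx1* was 0.23.

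Within β-cells *Slc38a5* went with the β-cell hormone. Its rho with *Ins1* was 0.62 over 56 DMSO-treated and 0.58 over 58 GNF4877-treated β-cells, and with the amylin gene *Iapp* 0.72 and 0.63. With *Gcg* it was 0.18 and -0.06 in the same cells. *Slc38a5* was also higher in β-cells with more genes read (rho 0.36 and 0.33), and the part of RNA content was not tested.

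The effect of GNF4877 on the 6 genes in α-cells was described by the ratio of 18 to 5 cells, in which treatment, chip and sequencing lane cannot be told apart. At a log2 ratio of 1 in either direction, *Ttr* at 1.52 and *Pou3f4* at 1.23 were higher and *Irx2* at -1.04 was lower. All 6 genes passed the 10% filter here. Over the genes that passed, 31.4% were called higher and 20.4% lower, so 2 higher and 1 lower of 6 is near the background. *Irx1* stood at 0.94, *Slc38a5* at 0.05 and *Gcg* at -0.44, and the median of the 5 genes other than *Gcg* was 0.94 against 0.18 over 14718 genes with a read.

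These α-cell calls hung on single cells. *Ttr* stood at 0.85 without treated cell 66 and at 5.58 without vehicle cell 67. *Pou3f4* stood at 0.08 without treated cell 84, at 0.995 without treated cell 34, at 0.92 without vehicle cell 33, 67 or 89, and at 2.63 without vehicle cell 94. *Irx2* lost its call when any of 14 cells was left out, most of all vehicle cell 90 (-0.40) or 94 (-0.40). *Irx1* gained a call when any of 14 cells was left out, most of all vehicle cell 33 (1.72), and stood at -0.10 without treated cell 85.

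The cells concerned are as follows. The 12 treated cells that change the *Irx2* call are cells 7, 9, 27, 34, 42, 52, 59, 66, 69, 71, 77 and 85, with values of -0.98 to -0.96. The 12 treated cells that change the *Irx1* call are cells 7, 9, 27, 34, 52, 53, 59, 66, 69, 71, 77 and 84, with a value of 1.01, and vehicle cell 90 gives 1.06. With 10 RPM added or with the difference of mean log2 values 1 gene was called. With the latter *Pou3f4* turned to -0.27, *Irx1* to -0.05 and *Slc38a5* to -0.30. With the 100 RPM class threshold *Irx2* turned to 3.35, as the 3 vehicle cells then counted, 33, 89 and 29, held no read, and *Slc38a5*, at 7.11 RPM in cell 29, stood at 1.82. With 10000 RPM *Pou3f4*, at 0.32, lost its call and *Ttr* stood at 2.15. *Irx1* reached 1.64 on thinning and 1.85 without cells holding *Sst* or *Ppy*.

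In β-cells, *Slc38a5* had a mean of 1904 RPM after GNF4877 and 900.3 RPM after DMSO, a log2 ratio of 1.08. *Ttr*, read in 2 of 58 against 0 of 56 cells, had a ratio of 1.41, and *Gcg* one of -0.43. *Irx2*, read in 0 of 58 against 2 of 56 cells, stood at -0.38, and *Irx1* and *Pou3f4* had no read in β-cells of either treatment. Counted at a ratio of 1, 2 of the 6 genes were higher and 0 lower, while 2 of the 6, *Gcg* and *Slc38a5*, passed the filter. Over all genes 8.42% were higher and 14.4% lower with the filter, and 8.93% and 14.5% without it.

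The *Ttr* ratio in β-cells became 0.28 without treated cell 93, 0.22 with 10 RPM added, 0.17 as a difference of mean log2 values and 2.06 on thinning. *Gcg* stood at -1.53 with class thresholds of 10000 RPM, which move double cell 60 to the β-cells, and *Irx2* at -1.99 with 0.1 RPM added. The *Slc38a5* ratio fell just under 1 without treated cell 35 (0.97), 63 (0.96), 78 (0.95) or 95 (0.97), and its ranges overlapped from end to end. The GNF4877-treated β-cells with a read of *Ccnb1*, a mitotic cyclin, held more *Slc38a5* than the others. In those 18 cells the median was 2047 RPM and 12 reached 1000 RPM, whereas in the 40 without a *Ccnb1* read the median was 574 RPM and 13 reached 1000 RPM. The ranges, 2.76 to 11269 RPM and 3.48 to 9580.3 RPM, overlapped, and whether the difference stands apart from RNA content was not tested. Some of the 18 cells held little *Ccnb1*, among them cells 14, 37, 38 and 48, at 0.477 to 0.777 RPM.

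Some further genes known from α-cells were followed beside the members. *Gc*, the vitamin D-binding protein, was read in all α-cells and double cells, and in 55 of 56 DMSO-treated and 58 of 58 GNF4877-treated β-cells. Its log2 ratio of α-cells over β-cells was 2.32 after DMSO and 1.64 after GNF4877. *Etv1*, an ETS family transcription factor, was read in 5 of 5 DMSO-treated α-cells, 22 of 22 double cells and 16 of 18 GNF4877-treated α-cells, against 9 of 56 and 10 of 58 β-cells. Its ratio of α-cells over β-cells was 5.38 after DMSO and 6.24 after GNF4877 (6.13 without DMSO-treated β-cell 42 and 8.48 without GNF4877-treated β-cell 50), and in α-cells its ratio of GNF4877 over DMSO was 1.32. *Etv1* was thus read in a larger share of the *Gcg*-rich classes than of β-cells. *Dpp4*, a peptidase that cleaves GLP-1, was read in 1 of 5 DMSO-treated and 2 of 18 GNF4877-treated α-cells. Its ratio over β-cells was 6.21 after DMSO, and -0.05 without α-cell 90. After GNF4877 it was 1.82, with 0.55 without α-cell 85 and 3.77 without β-cell 96. *Sstr2*, a somatostatin receptor, stood at 0.01 after DMSO, and at -3.83 without α-cell 67, and at 3.65 after GNF4877 from 1 α-cell, cell 53. Other genes known from α-cells did not stand higher. *Fap* and *Kcnj3* had no read in the 5 DMSO-treated α-cells and were called lower, *Fap* at -2.46, which was -1.44 without β-cell 46 and -1.97 without β-cell 24, and *Kcnj3* at -2.74. After GNF4877 *Fap* stood at -0.02 and *Kcnj3* at -0.49, which was 0.22 without β-cell 87 and -1.18 without α-cell 9. *Slc7a2* stood at 0.28 after DMSO, and at -0.87 without α-cell 90, and at -0.14 after GNF4877, which was 0.19 without β-cell 11. In the lists that follow, genes beyond the first 5 of a list are named after their values were seen.

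Between α-cells and β-cells the share of all genes with a read called higher was 4.65% after GNF4877 and 3.99% after DMSO, and the share called lower was 12.1% and 19.3%. Of 10 transcription factors that islet cells share and that act on *Gcg*, 7 of which passed the filter in each treatment, 0 were higher and 0 lower after GNF4877, with a median of -0.22. After DMSO 1 was higher, *Rfx6* at 2.09, and 0 were lower, with a median of 0.05. Between treatments in α-cells 0 were higher and 4 lower: *Pax6* at -1.04, *Isl1* at -1.95, *Foxa2* at -2.99 and *Rfx6* at -1.23. The median was -0.74, against 0.18 over all 14718 genes with a read, of which 4452 were higher and 2985 lower. *Foxa2* was read in 5 of 5 DMSO-treated and 4 of 18 GNF4877-treated α-cells, and fewer genes of any kind were read in the latter.

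Among the 6 Iroquois genes 2, *Irx1* and *Irx2*, were higher in GNF4877-treated α-cells than β-cells and 1, *Irx2*, after DMSO, while *Irx3* and *Irx5* had no read in any cell. Among the 4 POU class 3 genes *Pou3f4* was called in both treatments. *Pou3f2* was read in 17 of 18 GNF4877-treated α-cells and 54 of 58 β-cells, with a ratio of 0.09, and *Pou3f1* had no read. Among the 11 SLC38 transporters 0 were higher and 2 lower in α-cells after each treatment, *Slc38a1* at -3.82 and *Slc38a9* at -3.13 after GNF4877 and *Slc38a1* at -4.84 and *Slc38a7* at -3.21 after DMSO. That is 18.2% of the list, near the 12.1% and 19.3% lower over all genes.

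*Rbp4*, the retinol carrier that binds transthyretin, was read in 17 of 18 GNF4877-treated α-cells, 5 of 5 DMSO-treated α-cells and 22 of 22 double cells, against 7 of 58 and 4 of 56 β-cells. Of the 5 carrier genes 2 were higher in α-cells after GNF4877, *Rbp4* at 4.88 and *Stra6* at 3.75 from 1 cell, and 1, *Rbp2*, was lower at -2.71. After DMSO 0 were higher and 0 lower. Over all genes 4.65% were higher and 12.1% lower after GNF4877, and 3.99% and 19.3% after DMSO. *Rbp4* was thus read in more α-cells and double cells than *Ttr* was.

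Of the 5 genes that process proglucagon, 0 were higher in α-cells and 1 was lower, beside 12.1% of all genes lower after GNF4877 and 19.3% after DMSO. That gene was *Pcsk1*, at -5.52 after GNF4877 and -5.27 after DMSO, read in 2 of 18 and 4 of 5 α-cells. In double cells *Pcsk1* was read in 22 of 22, with a ratio over β-cells of 0.37. *Pcsk2* was read in every α-cell, β-cell and double cell, and its ratio over β-cells was 0.71 after GNF4877 and 1.41 after DMSO.

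The 4 receptors of proglucagon peptides gave 0 higher and 2 lower in GNF4877-treated α-cells, the glucagon receptor *Gcgr* at -5.57 and the GLP-1 receptor *Glp1r* at -3.34, beside 12.1% of all genes lower. *Gcgr* was read in 0 of 18 of these α-cells, which allows up to 16.7%, and in 18 of 58 β-cells. In the DMSO-treated α-cells *Gcgr* was read, and of the 4 receptors only *Glp2r* had no read. After DMSO 1 was higher, the GIP receptor *Gipr* at 2.58, and 1 lower, *Glp1r* at -3.09, beside 3.99% of all genes higher and 19.3% lower. *Gipr*, with a mean of 341 RPM, led the receptor sum of the DMSO-treated α-cells. That sum had a median of 155 RPM and reached 1101 RPM in cell 89, so much of the *Gipr* mean came from that cell. The ratio of *Gipr* without cell 89 is not given here. Between treatments in α-cells, at a ratio of 1, 0 of the 4 receptors were higher and 3 lower. Over all genes with a read 30.2% were higher and 20.3% lower. Double cells held *Glp1r* in 22 of 22 cells, with a ratio over β-cells of -0.16.

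The 10 genes whose levels were most like *Gcg*, by the lower of the rho values over 86 DMSO-treated and 84 GNF4877-treated cells, were led by *Rbp4* (0.70 and 0.59), *Tmem176a* (0.53 and 0.57) and *Etv1* (0.66 and 0.51). The other 7 were *LOC299282*, *Tmem176b*, *Clu*, *Tmsb4x*, *Gria3*, *LOC100361528* and *Tmem59l*, with lower values from 0.46 down to 0.41. Genes read in under 20% of the cells of either treatment were not ranked, which left out *Ttr*, *Irx1*, *Irx2* and *Pou3f4*. *Irx2*, with 0.53 and 0.52, had a lower value above that of *Etv1*, and *Slc38a5*, which was ranked, had 0.18.

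POU3F4, a homeodomain protein, is known to act at the *Gcg* promoter. The 250 bases before the *Gcg* start are therefore shown, at chr3:67531534-67531783 on the minus strand of the GRCr8 build, from RefSeq. Capitals mark the homeodomain core TAAT and the forkhead words TGTTTAC and TATTTAC, searched on both strands.
Gcg: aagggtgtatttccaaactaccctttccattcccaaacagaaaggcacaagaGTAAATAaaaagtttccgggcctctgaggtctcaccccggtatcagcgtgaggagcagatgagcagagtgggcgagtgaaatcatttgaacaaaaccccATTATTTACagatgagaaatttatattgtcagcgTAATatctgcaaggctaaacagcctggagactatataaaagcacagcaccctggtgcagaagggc
The window held 2 matches of TAAT, 2 of TATTTAC and 0 of TGTTTAC, and 1 TATTTAC overlapped a TAAT on the other strand. Of 33469 promoters of the same length 56.97% held TAAT, 3.04% TATTTAC and 3.21% TGTTTAC. All 6 members had a promoter in the table. TAAT was found 3 times for *Slc38a5*, 2 times for *Ttr* and 1 time for *Pou3f4*, and neither *Irx1* nor *Irx2* held any of the 3 words. A match is a description of these letters and not a site.

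Markers of other cell types were summed in the α-cells. Of the 8 β-cell markers 6 were read in DMSO-treated α-cells, with a mean sum of 547 RPM led by *Ins1*, and 5 in GNF4877-treated α-cells, with 206 RPM led by *Iapp*. *Nkx6-1* and *Mafa* were at 0 in both, and *Pdx1* in the latter. Of the 7 other than *Ins1*, which defines the classes, 6 were lower than in β-cells after DMSO, beside 19.3% of all genes, and 5 after GNF4877, beside 12.1%. The δ-cell markers *Sst* and *Hhex* averaged a sum of 346 RPM after DMSO and 15.9 RPM after GNF4877, with *Hhex* at 0 in the latter, and vehicle α-cell 33 alone had *Sst* over 1000 RPM, at 1672 RPM. *Ppy*, the hormone of PP cells, averaged 17.4 RPM after DMSO and 1267 RPM after GNF4877, and treated α-cells 59, with 15428 RPM, and 8, with 5480.5 RPM, exceeded 1000 RPM, as did 5 double cells.

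Of 7 acinar markers 1, *Ctrb1*, was read and 6 were at 0, *Ctrb1* being at 4.73 RPM after DMSO and 0.263 RPM after GNF4877. Of 4 duct markers 3 were read after DMSO and 4 after GNF4877, with mean sums of 103 and 331 RPM led by *Krt7*, and *Krt19* was at 0 after DMSO. The highest duct sum of the GNF4877-treated α-cells, 1364 RPM against a median of 124 RPM, stood in cell 85. The call of *Irx1* after GNF4877 rested on this cell. The 4 endothelial markers were all at 0 in both. Of 5 mesenchymal markers 3 and 4 were read, with mean sums of 1.18 and 128 RPM led by *Col3a1*, the latter from treated α-cell 42 with 2305 RPM; *Lum* was at 0 in both and *Col1a2* after DMSO. Of 5 immune markers 2 and 3 were read, at 0.660 and 11.6 RPM, led by *Ptprc* and *Cd74*, with *Cd68* and *Tyrobp* at 0 in both and *Cd74* at 0 after DMSO. Cell 42 was also the α-cell with the lowest *Gcg*, 43763 RPM, and it held *Ttr* and *Irx1*. Without the cells that held *Sst* or *Ppy* at 1000 RPM, the count of the 5 genes called between α-cells and β-cells was again 4 after GNF4877 and 3 after DMSO, and the ratio of *Irx1* moved to 0.80 over β-cells after DMSO and to 1.85 between treatments. Without cell 42 the ratio of *Irx2* between treatments was -0.96, under the call.

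Each treatment was 1 sample, so no test between treatments was possible, and cells are not replicates of a treatment. The 5 DMSO-treated α-cells set the width of every interval and ratio that uses them. A cell without a read of *Ttr*, *Irx1*, *Irx2* or *Pou3f4* may hold the transcript below detection at this depth. RPM values are not scaled by transcript length, which may bear on the marker sums and on the gene that led each. The labels state that cells used were verified as single in their port; whether double cells held RNA of further cells was not tested.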

How the data were processed

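Single cells of islets treated with DMSO or GNF4877 were measured by RNA sequencing. The deposited table gives RPM (reads scaled to mapped reads) per transcript and cell, which the authors made, per the submitters' processing notes, with CASAVA 1.8.2, BWA 0.5.9 and SAMtools 0.1.19; they name the mouse transcriptome, although the rows carry rat RefSeq transcripts. Values of 0.01 RPM, the floor, were set to 0, and the 27586 rows were summed to 24113 symbols. Mapped reads per cell were recovered from the step between low values, all 673266 of which lay within 0.1 of a whole read. The code, tested on simulated data, ran in Python 3.11.15 with scipy 1.17.1 for intervals, pandas 2.3.3 and numpy 2.4.6 for tables, and matplotlib 3.10.9 for plots.

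Classes used 1000 RPM of *Gcg* and *Ins1*. Ratios are log2 of mean RPM plus 1, called at 2 between classes and at 1 between treatments, beside all genes read in at least 10% of the cells compared. Shares carry exact Clopper-Pearson 95% intervals, and a count of 0 is given with the 3 of n that it allows. No test was made between classes or treatments. Single values in groups of 5 and 7 cells were held against Dixon's 95% critical values for the gap over the range. The genes named are the 6 members, up to 5 genes of each list in its written order, and the 10 genes most like *Gcg* by the lower of the Spearman rho values of the 2 treatments, among genes read in 20% of the cells of each. Of a list of 10 further α-cell genes 8 are given singly, and the rest, with the counts over the list, are not reported here. The lists are islet transcription factors, Iroquois, POU class 3 and SLC38 families, carriers beside *Ttr*, proglucagon processing, its peptide receptors, and markers of β, δ, PP, acinar, duct, endothelial, mesenchymal and immune cells. The members and lists were chosen with earlier results of these data known. Alternatives were class thresholds of 100 and 10000 RPM, leaving out cells with *Sst* or *Ppy* of 1000 RPM, 0.1 or 10 RPM added, differences of mean log2 values, thinning to 100000 reads on listed transcripts (3 cells of each treatment held fewer there and were left out), RPM over listed reads, the highest row of a symbol, a read taken as 10 RPM, each cell left out in turn, and no filter.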

Additional observations from a re-analysis of the deposited data

Results flagged for a closer look

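Some values stood far from the others of their group. Among the 5 DMSO-treated α-cells, *Ttr* was 78.2 RPM in cell 67 and 0 in the other 4. Among the 7 GNF4877-treated cells of neither class, cell 33 had *Slc38a5* at 663 RPM and *Ttr* at 6.57 RPM, and it had *Ppy* at 30112 RPM. Of 12 sets of values looked at 3 had such a value. Chance gives such a value in about 1 in 20 groups if values follow a normal distribution, which was not checked for *Slc38a5* or any other gene. For *Ttr* that rate does not hold, since a gene read in 1 cell of a group stands apart by construction. A group without any read cannot give such a value.

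The cells of neither class enter the rho values over all cells and, with classes set at 1000 RPM of the deposited values, no ratio. Some GNF4877-treated ones exceeded all 3 DMSO-treated ones, which reached 181 RPM of *Gcg*, 13.4 RPM of *Slc38a5* and 0 of *Ttr*. *Gcg* was 412 RPM in cell 5 and 224 RPM in cell 57. *Slc38a5* was 60.2 RPM in cell 5 and 17.2 RPM in cell 57, beside the values of cell 33. Cells 5 and 57 had under 700000 RPM on listed transcripts. These differences were not tested.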

How the results depend on the processing

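No paired analysis was possible because the design holds 1 sample per treatment. With class thresholds of 100 RPM the double cells were 52.3% of the DMSO-treated and 25% of the GNF4877-treated cells. A lower threshold admits β-cells with low *Gcg*. It also admits α-cells with low *Ins1*, here DMSO-treated cells 67, 90 and 94 and GNF4877-treated cells 27 and 85. Of the DMSO-treated double cells 51.1% then held any of the 4 sparse genes. With classes at 1000 RPM and a read taken as 10 RPM it was 59.1%. The count of genes called in α-cells over β-cells after GNF4877, 4, became 2 with 10 RPM added and 2 with the difference of mean log2. After DMSO, 3 became 0 with 100 RPM thresholds and 0 with 10 RPM added. For double cells over β-cells, 2 became 4 with 0.1 RPM and 0 with 10 RPM added. Between treatments, 3 became 1 in α-cells and 2 became 1 in β-cells, with 10 RPM added and with the difference of mean log2; leaving out each β-cell in turn gave 1 to 2. *Irx2* turned to -0.50 (DMSO, α over β) and to 3.35 (treatments, α-cells) with 100 RPM thresholds. Under these the DMSO-treated α-cells were cells 33, 89 and 29, the last of neither class at 1000 RPM. With the difference of mean log2, *Pou3f4* turned to -0.27, *Irx1* to -0.05 and *Slc38a5* to -0.30 (treatments, α-cells). Where no reason is given, the cause was not tested. Of the other values, 148 of 160 shares stayed within their intervals and the 12 that moved fell; 239 of 324 log2 ratios moved by under 1.5-fold; 48 of 50 rho values moved by under 0.1. An alternative chosen after seeing the data, leaving out cells with under 700000 RPM on listed transcripts, moved no share, ratio or rho beyond these limits. On thinning, the share of double cells with *Irx2* fell to 31.8% and that with *Irx1* to 4.55%, while 18 of 20 shares stayed within their intervals.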
